A study of Mus musculus with 24 samples.

Results

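Expression of 10 genes of the liver X receptor (LXR) and cholesterol efflux program was described in mouse macrophages and B cells. They were the receptors Nr1h2 (LXR beta) and Nr1h3 (LXR alpha) and 8 genes known as LXR targets, Abca1, Abcg1, Apoe, Srebf1, Mylip, Pltp, Lpl and Scd1. Members were chosen by name, as every array probe that carried one of these 10 gene symbols. This gave 12 probes for the 10 genes, of 21597 gene symbols on the array, and all 10 genes were among the 17347 genes tested. All cells came from C57BL/6 mice. Macrophages were taken from the peritoneum after thioglycollate (EPM) or grown from bone marrow (BMDM), and B cells were resting cells of the spleen. EPM and B cells were untreated, treated with Kdo2 lipid A (KLA, an agonist of Toll-like receptor 4) for 1 h or 12 h, or kept in the solvent DMSO for 12 h. BMDM received DMSO or KLA for 1 h or 12 h, so the early control was untreated in EPM and B cells and DMSO 1 h in BMDM. EPM were lavaged 3 days after injection and cultured overnight, BMDM were grown in L-cell conditioned medium, and B cells were what remained after magnetic depletion of CD43- and CD11b-bearing cells. Each of the 12 conditions was measured in 2 biological replicates, one labelled Cy5 and the other Cy3, hybridised together on 1 two-colour array.

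LXRs are nuclear receptors that are activated by oxysterols, oxidised forms of cholesterol, and that bind DNA together with a retinoid X receptor. When a macrophage is loaded with cholesterol, LXRs switch on genes that move it out of the cell: the transporters Abca1 and Abcg1, which load cholesterol onto lipoprotein particles, and Apoe, a carrier protein of such particles. They also act on Srebf1, a regulator of fatty acid synthesis, and on Mylip, a ubiquitin ligase that lowers the LDL receptor. Signals through Toll-like receptors are known to interfere with LXR activity in macrophages.

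LXR response elements are direct repeats of the letters AGGTCA spaced by 4 bases. This pattern was searched on both strands of the RefSeq promoters (250 bases before to 50 bases after each gene start, GRCm38.p6), allowing up to 3 mismatches over its 12 fixed letters. RefSeq promoters were listed for 7 of the 10 genes, 12 promoters in all, and 2 of these held a match, beside 21.9% of all 32841 promoters searched. The matches were in Abca1 and in 1 of 3 listed Srebf1 promoters. They are shown because Abca1 and Srebf1 are the transporter and the regulator whose changes after KLA are described below. The 250 bases before each start follow, 5′ to 3′ on the strand of the gene, with the match in capitals. Both matches lay on the opposite strand, where they read GGGTTACTACCGGTCA in Abca1 and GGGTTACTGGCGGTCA in Srebf1.
Abca1 (GRCm38.p6, chr4:53159896-53160145, minus strand, match 67 to 52 bases before the start): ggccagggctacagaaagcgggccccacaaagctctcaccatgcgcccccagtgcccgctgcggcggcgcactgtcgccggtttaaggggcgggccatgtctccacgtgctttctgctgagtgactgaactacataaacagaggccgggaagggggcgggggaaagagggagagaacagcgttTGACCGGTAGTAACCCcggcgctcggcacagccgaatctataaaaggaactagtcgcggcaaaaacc
Srebf1 (GRCm38.p6, chr11:60210472-60210721, minus strand, match 182 to 167 bases before the start): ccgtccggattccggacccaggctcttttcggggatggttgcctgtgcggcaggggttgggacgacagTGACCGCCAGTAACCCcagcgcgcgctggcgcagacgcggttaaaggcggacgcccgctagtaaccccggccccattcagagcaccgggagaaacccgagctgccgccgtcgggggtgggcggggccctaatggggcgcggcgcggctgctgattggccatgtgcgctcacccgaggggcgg
No other pattern was searched, a match of letters is a description, and neither a match nor its lack says anything of binding. No probe on the array measures these promoters.

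Between 57.4% and 65% of probes were well above background in each channel, and no spot was saturated. Macrophage markers were well above background in all 8 macrophage conditions, 9 of 9 in both channels, while in B cells 5 or 6 of 9 were and Itgam, Fcgr1 and Mrc1 were not. All 8 B cell markers were above background in every B cell condition. In macrophages 5 to 7 of these 8 were as well, with a summed level of 14.31 to 16.05 beside 18.15 to 18.48 in B cells (log2), and at least 1 of Pax5 and Fcrla was not above background in each condition. KLA raised Tnf, Il1b, Il6 and Cxcl10 in both macrophage types at both times (for example Il1b by 7.71 in EPM and 5.83 in BMDM at 1 h, log2). The B cell labels were in conflict. In the authors' normalized table, the B cell columns named KLA 1 h and DMSO 12 h each followed the scanner signals of the other condition (r of 0.97 to 0.98, and of -0.77 to -0.71 with their own), so B cell results are given as labelled with the scanner files and with the 2 labels exchanged. Since both replicates of a condition shared an array and each cell type had its own slide, condition cannot be told apart from array, nor cell type from slide, and the p-values measure the spread between the channels of an array.

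**Figure D1:**
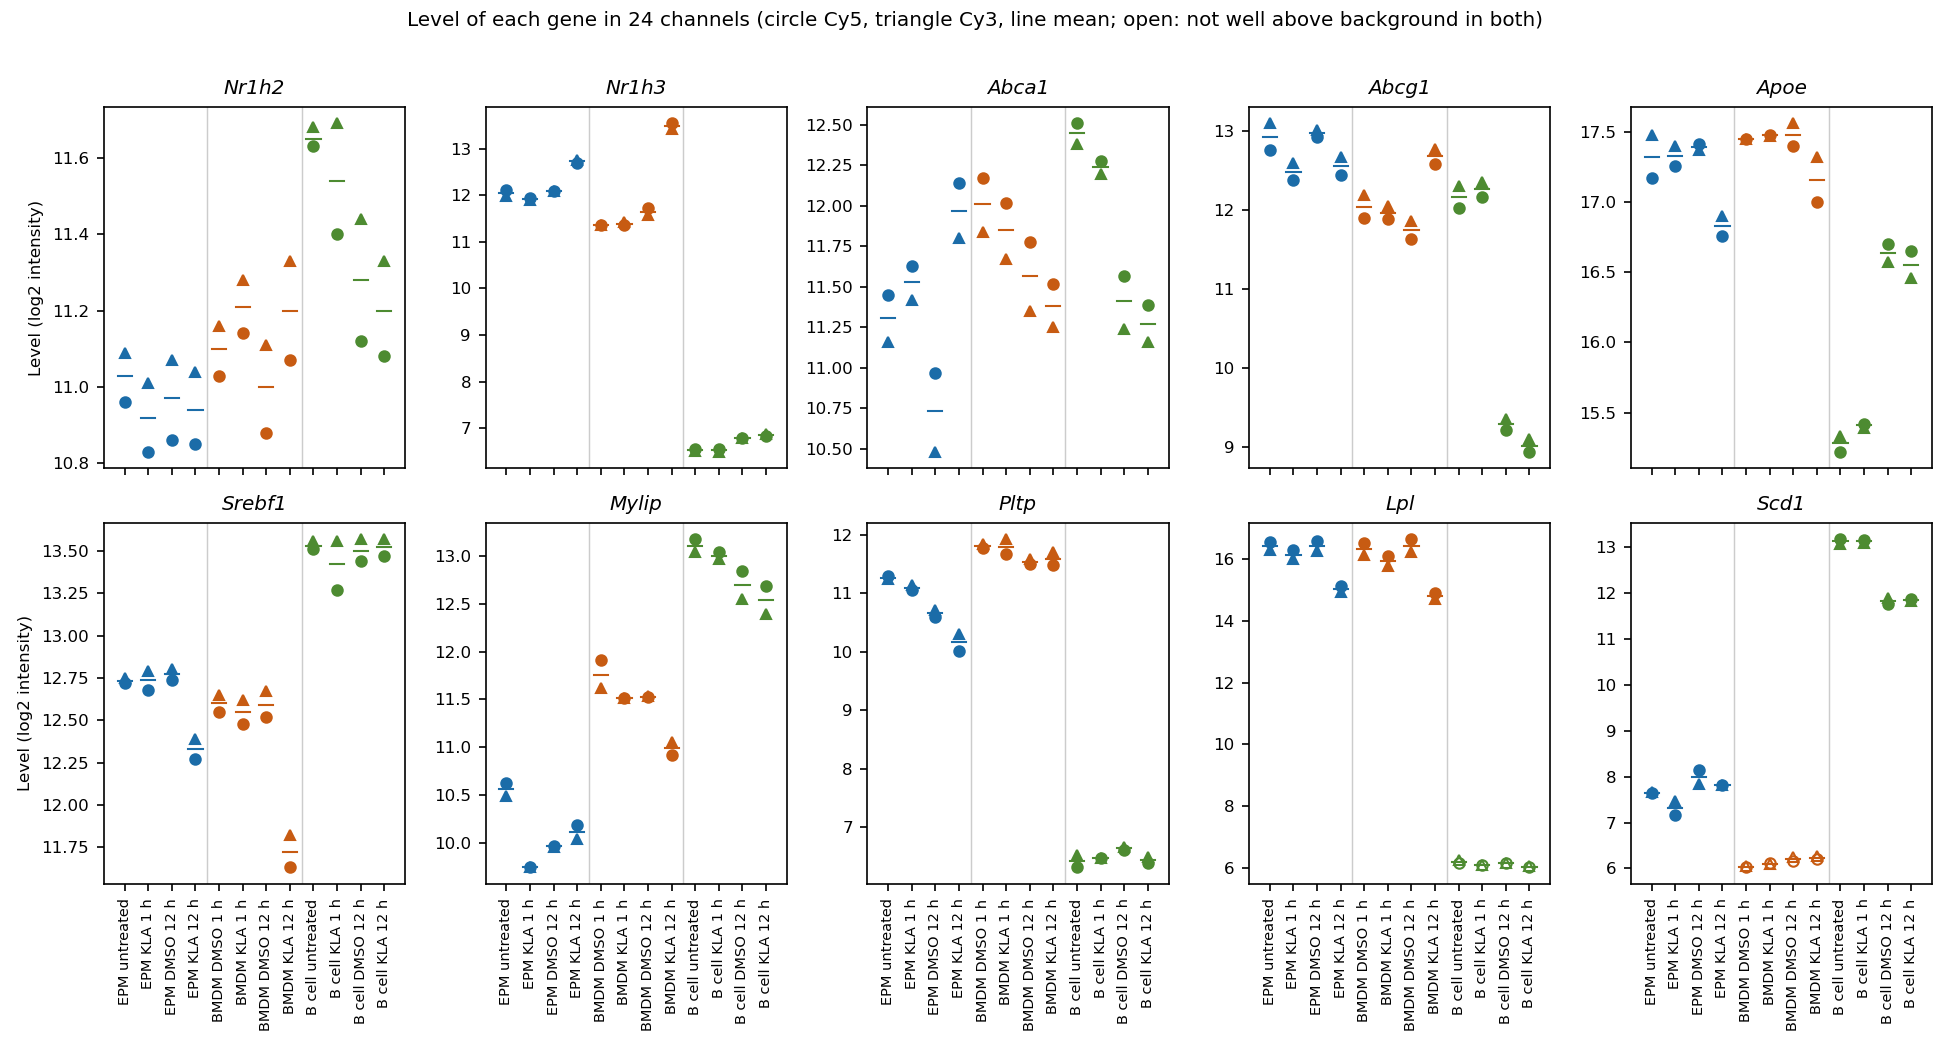
Level of each of the 10 genes (y axes, log2 intensity, a separate scale per gene) in the 12 conditions (x axes), with circles for Cy5, triangles for Cy3, short lines for their mean, and open symbols where the probe was not well above background in both channels. Nr1h3 was near 13.5 in BMDM after 12 h of KLA and at 6.49 to 6.87 in B cells, and Lpl was not above background in any B cell channel.

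After 12 h of KLA the genes did not move in 1 direction. In EPM, 7 of the 10 genes passed the test, against 53.9% of all genes tested: Nr1h3 and Abca1 rose, and Abcg1, Apoe, Srebf1, Pltp and Lpl fell. In BMDM, 6 of 10 passed, against 65% of all genes: Nr1h3 and Abcg1 rose, and Apoe, Srebf1, Mylip and Lpl fell. The shares of members that passed were not far from those of all genes, and the median change of the members was -0.29 in EPM and -0.08 in BMDM (log2), beside -0.061 and -0.025 over all genes. In these bulk samples fewer cells that express a gene and less RNA per cell cannot be told apart. Without quantile normalization between arrays the split in EPM was 3 higher and 3 lower in place of 2 and 5. A stricter fit took the mean of each array as 1 sample and the early and 12 h control arrays of a cell type as 1 control group, with each KLA array assumed to vary like the controls. In it the calls for Lpl in EPM and for Nr1h3, Srebf1 and Lpl in BMDM held and the others were lost.

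**Figure D2:**
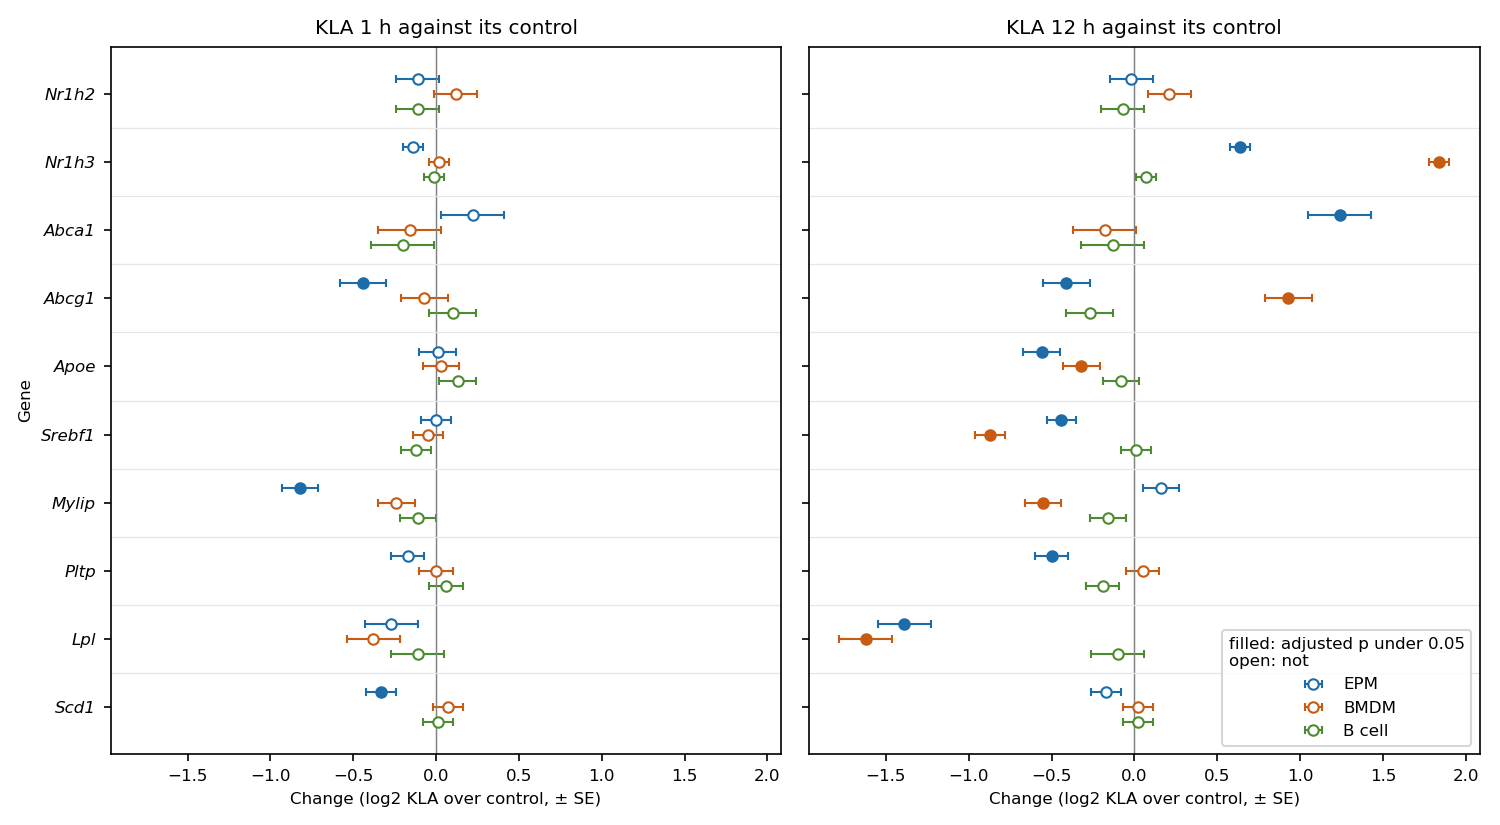
Change of each gene with KLA against its control (x axes, log2, points with 1 standard error) at 1 h and at 12 h in EPM, BMDM and B cells, where filled points passed an adjusted p of 0.05. At 12 h Abca1 stood at 1.24 in EPM and -0.18 in BMDM, and Abcg1 at -0.41 and 0.93.

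The receptor Nr1h3 (probe at chr2:90985117-90985176, mm8) rose in both macrophage types, and more in BMDM. Its level, as log2 intensity in Cy5 and Cy3, was 11.72 and 11.57 in BMDM with DMSO and 13.54 and 13.43 with KLA for 12 h. In EPM it was 12.08 and 12.10 with DMSO and 12.70 and 12.76 with KLA. Both KLA channels were above both DMSO channels in each cell type. The rise was 3.58-fold in BMDM (log2 1.84 ± 0.06 SE, n = 2, limma adjusted p = 7.99e-15) and 1.56-fold in EPM (0.64 ± 0.06, adjusted p = 5.27e-08). The change in EPM was smaller by 1.20 ± 0.09 on the log2 scale (adjusted p = 2.6e-09), a difference that was tested in the same fit. Nr1h2 (chr7:44417972-44418031), the receptor found in most tissues, ranged from 10.83 to 11.33 over the 16 macrophage channels, and its KLA and control channels overlapped at both times in both cell types. Its changes at 12 h, -0.02 in EPM and 0.21 in BMDM, did not pass (adjusted p = 0.904 and 0.181). A fit with dye as a block passed the 0.21 in BMDM and its difference of -0.23 between the cell types.

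The changes of the transporters Abca1 and Abcg1 differed between the macrophage types: Abca1 rose in EPM and did not pass in BMDM, and Abcg1 fell in EPM and rose in BMDM. Abca1 (chr4:53052172-53052231), whose promoter is printed above, was at 10.97 and 10.48 in EPM with DMSO for 12 h and at 12.14 and 11.80 with KLA. In BMDM it was at 11.78 and 11.35 with DMSO and at 11.52 and 11.25 with KLA. The EPM channels did not overlap, and the BMDM channels did. Abca1 thus rose 2.37-fold in EPM (log2 1.24 ± 0.19, adjusted p = 1.51e-05), while its change of -0.18 ± 0.19 in BMDM did not pass (adjusted p = 0.406), although with dye as a block it did. The change was higher in EPM by 1.43 ± 0.26 (adjusted p = 0.000214). The level in EPM with DMSO for 12 h was also the lowest of the 12 conditions, below the untreated EPM by 0.58 ± 0.19 (adjusted p = 0.0361). That last call was lost without the first replicate of untreated EPM (-0.44) or the second of EPM DMSO 12 h (-0.33).

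Abcg1 (chr17:30842647-30842706) was at 11.63 and 11.86 in BMDM with DMSO for 12 h and at 12.58 and 12.77 with KLA. In EPM it was at 12.92 and 13.01 with DMSO and at 12.44 and 12.67 with KLA. After KLA the levels in the 2 cell types were thus alike, from 12.44 to 12.77, whereas with DMSO they lay apart. Abcg1 rose 1.91-fold in BMDM (log2 0.93 ± 0.14, adjusted p = 7.95e-06) and fell in EPM by 0.41 ± 0.14 on the log2 scale (adjusted p = 0.016). The change in EPM was lower than that in BMDM by 1.35 ± 0.19 (adjusted p = 1.51e-05). The fall in EPM was lost without quantile normalization between arrays (-0.16), in the authors' table (-0.25), and without the second DMSO replicate (-0.37) or the first KLA replicate (-0.30).

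Apoe, the third efflux gene (chr7:18854905-18854964), had 10 spots per array, 8 to 10 of them used per channel, and the levels 17.41 and 17.37 in EPM with DMSO and 16.76 and 16.90 with KLA for 12 h. In BMDM the levels were 17.40 and 17.56 with DMSO and 17.00 and 17.32 with KLA. KLA channels were below DMSO channels in both. Apoe fell in EPM by 0.56 ± 0.11 (adjusted p = 0.000182) and in BMDM by 0.32 ± 0.11 (adjusted p = 0.0123) on the log2 scale, and the difference between these changes did not pass (-0.24 ± 0.15, adjusted p = 0.205). That difference was -0.40 without the first replicate of BMDM KLA 12 h, so it depended on 1 channel. The spots of the Apoe probe within a channel had an SD of 0.03 to 0.45, the highest in the first replicate of BMDM KLA 12 h. Without that replicate the change in BMDM was -0.16 and did not pass, nor did it without the second DMSO replicate (-0.24) or without quantile normalization between arrays (-0.16).

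Srebf1 (chr11:60015907-60015966), whose product switches on genes of fatty acid synthesis, fell in both macrophage types. It was at 12.52 and 12.67 in BMDM with DMSO for 12 h and at 11.63 and 11.82 with KLA. In EPM it was at 12.74 and 12.80 with DMSO and at 12.27 and 12.39 with KLA. The groups did not overlap in either cell type. Srebf1 fell by 0.87 ± 0.09 in BMDM (adjusted p = 1.29e-07) and by 0.44 ± 0.09 in EPM (adjusted p = 0.000523) on the log2 scale. The difference of 0.43 ± 0.13 between these changes passed (adjusted p = 0.0109) but was lost without the second replicate of EPM KLA 12 h (0.37), the second of BMDM DMSO 12 h (0.36) or the first of BMDM KLA 12 h (0.34). Without quantile normalization between arrays the fall in EPM was -0.21 and did not pass. Scd1 (chr19:44448208-44448267), a desaturase that makes monounsaturated fatty acids, was at 8.14 and 7.83 in EPM with DMSO and 7.81 and 7.82 with KLA for 12 h, and its change of -0.17 ± 0.09 did not pass (adjusted p = 0.123). Without the second DMSO replicate the Scd1 change in EPM was -0.33 and passed. In BMDM Scd1 was well above background in 1 of 2 channels of each 12 h condition and in none at 1 h, so that no fold is given there.

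Of the genes that act on lipoproteins outside the cell, Lpl fell in both macrophage types. Lpl (chr8:71835357-71835416), lipoprotein lipase, which releases fatty acids from triglyceride-rich particles, was at 16.64 and 16.21 in BMDM with DMSO and 14.91 and 14.69 with KLA for 12 h. In EPM it was at 16.58 and 16.24 with DMSO and at 15.12 and 14.92 with KLA. The fall was 3.08-fold in BMDM (log2 -1.62 ± 0.16, adjusted p = 3.12e-08) and 2.62-fold in EPM (-1.39 ± 0.16, adjusted p = 3.93e-07), and the difference between these changes did not pass (0.23 ± 0.22, adjusted p = 0.404). A second Lpl probe (chr8:71830140-71830199) gave -1.37 and -1.52. Pltp (chr2:164531715-164535671), which transfers phospholipids between lipoproteins, was at 10.59 and 10.72 in EPM with DMSO and 10.02 and 10.30 with KLA, and at 11.50 and 11.58 in BMDM with DMSO and 11.49 and 11.70 with KLA. Pltp fell in EPM by 0.50 ± 0.10 (adjusted p = 0.000311), its change of 0.05 ± 0.10 in BMDM did not pass (adjusted p = 0.673), and the difference was -0.55 ± 0.14 (adjusted p = 0.0035). Without quantile normalization between arrays that difference was -0.31 and did not pass, and in the authors' table the change in BMDM was 0.31 and passed.

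Mylip (chr13:45422582-45422641) was at 11.53 and 11.54 in BMDM with DMSO and at 10.92 and 11.05 with KLA for 12 h, a fall of 0.55 ± 0.11 on the log2 scale (adjusted p = 0.00019). In EPM it was at 9.97 and 9.95 with DMSO and 10.19 and 10.04 with KLA, and the change of 0.16 ± 0.11 did not pass (adjusted p = 0.239), though without quantile normalization between arrays it was 0.27 and did. The changes differed by 0.70 ± 0.15 (adjusted p = 0.000881). A second, dimmer Mylip probe (chr13:45419411-45419470), at 6.14 to 7.59 in macrophages, did not show this: its change in BMDM was -0.07 and the difference 0.10, and neither passed. Over the 10 genes, 6 differed between EPM and BMDM in their change at 12 h, against 47.8% of all genes tested, and none of the 6 passed with the mean of each array as 1 sample.

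At 1 h of KLA 3 of 10 members passed in EPM, near the share of 29.1% of all genes tested. All 3 fell: Mylip, Abcg1 and Scd1. Over all genes, 19.7% fell and 9.39% rose. The control was untreated EPM, so KLA and handling of the cells cannot be told apart. Without KLA, between untreated EPM and EPM with DMSO for 12 h, Mylip fell too (-0.60), Scd1 rose (0.34) and Abcg1 did not pass (0.05). Mylip was at 10.62 and 10.49 in untreated EPM and at 9.74 in both channels with KLA, a 1.76-fold fall (log2 -0.82 ± 0.11, adjusted p = 1.02e-05), and its second probe fell too (-0.25, adjusted p = 0.0321). That second probe was near background, at 6.14 and 6.22 with KLA, and well above it in 1 of these 2 channels. Abcg1 fell by 0.44 ± 0.14 (adjusted p = 0.0208), from 12.75 and 13.09 to 12.37 and 12.59. Scd1 fell by 0.33 ± 0.09 (adjusted p = 0.0102), from 7.64 and 7.66 to 7.17 and 7.47. The calls for Abcg1 (-0.27 and -0.33) and Scd1 (-0.32 and -0.18) were lost without the second replicate of untreated EPM or the first of EPM KLA 1 h. Both were also lost in the authors' table (-0.36 and -0.35), and that for Scd1 with EPM fitted alone (-0.33). With the mean of each array as 1 sample none of the 3 passed. The Abca1 change of 0.22 and the Lpl change of -0.27 passed with dye as a block, and the second Lpl probe passed without it (-0.33, adjusted p = 0.000522).

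In BMDM at 1 h none of the 10 genes passed the limma test, against 28.6% of all genes, and 2 had an unadjusted p under 0.05. These were Lpl, at 16.50 and 16.13 with DMSO and 16.09 and 15.78 with KLA (-0.38 ± 0.16, adjusted p = 0.079), and Mylip, at 11.91 and 11.62 with DMSO and 11.52 in both channels with KLA (-0.24 ± 0.11, adjusted p = 0.0997). Both passed with dye as a block, and the second Lpl probe passed without it (-0.29, adjusted p = 0.00161). The 1 h control was untreated in EPM and had DMSO in BMDM. In a difference between their changes, cell type and handling of the control cannot be told apart. The change of Mylip at 1 h was lower in EPM than in BMDM by 0.57 ± 0.15 (adjusted p = 0.0196), the 1 member of 10 to differ, against 9.56% of all genes. That call was lost in 6 of the 8 fits that left out 1 channel, with differences from -0.43 to -0.57, held without the second untreated EPM replicate or the first BMDM DMSO replicate, and was not seen with the second probe (-0.28). The differences for Abca1 (0.38), Abcg1 (-0.37) and Scd1 (-0.40) passed with dye as a block. Scd1 was not well above background in BMDM at 1 h, and its difference moved with the processing. It also passed with offset 16 (-0.56), in the scanner's processed signals (-1.40) and without quantile normalization between arrays (-0.46).

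Basal levels differed between the cell types. Between untreated EPM and BMDM with DMSO for 1 h, 6 of 10 genes passed, against 57.8% of all genes. Nr1h3 was higher in EPM by 0.69 ± 0.06 (adjusted p = 1.5e-08) and Abcg1 by 0.88 ± 0.14 (adjusted p = 2.08e-05) on the log2 scale, while Abca1 (-0.70 ± 0.19, adjusted p = 0.0036), Mylip (-1.21 ± 0.11, adjusted p = 1.52e-08) and Pltp (-0.54 ± 0.10, adjusted p = 0.000119) were lower. Scd1, at 7.64 and 7.66 in EPM, was at least 2.98-fold higher there than in BMDM, where it was not well above background (adjusted p = 2.26e-11). The controls differed in handling as well, since BMDM had DMSO. The summed level of 5 neutrophil markers was 10.66 to 10.74 in the BMDM control and 8.84 to 8.90 in untreated EPM (log2). That of 8 B cell markers was 14.72 to 14.75 in BMDM and 15.98 to 16.05 in EPM. That of 4 adipocyte markers was 12.19 to 12.23 in BMDM, with 2 of the 4 above background in both channels. In EPM it was at least 15.86, with 1 of the 4 above background in both channels and Cfd and Adipoq in neither. Gene by gene the B cell markers went the other way from their sum. Of the 8 tested, 2 were higher and 4 lower in EPM (median -0.12, log2). All 5 neutrophil markers tested were lower in EPM, and of 2 adipocyte markers tested 1 was higher and 1 lower. The part of these markers in the differences was not tested. The Abca1 difference was lost without the second untreated EPM replicate (-0.55) or the first BMDM replicate (-0.54), and 1 of the 6, Mylip, held with the mean of each array as 1 sample. Srebf1 (0.14) passed with dye as a block, and the second Lpl probe (0.29, adjusted p = 0.000638) passed where the first did not.

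In resting B cells the 10 genes lay both above and below their levels in EPM. All 10 genes differed between untreated B cells and untreated EPM, against 77.2% of all genes tested. Of these, 5 were higher and 5 lower in B cells, beside 38.5% higher and 38.6% lower over all genes. Nr1h3 was at 6.56 and 6.51 in B cells, 45.8-fold lower than in EPM (adjusted p = 1.77e-22), and Pltp, at 6.31 and 6.52, was 28.8-fold lower (adjusted p = 1.05e-18). Both were little above the lowest level well above background, 6.05 and 6.13, and in the scanner's processed signals the differences were -6.97 for Nr1h3 and -6.50 for Pltp, in place of -5.52 and -4.85 (log2). Lpl, not well above background in any B cell channel, was at least 1170-fold lower by its brighter probe (adjusted p = 1.45e-20). The second Lpl probe, also not well above background in B cells, gave a measured difference of -8.83 ± 0.06 (log2), 457-fold. The size of the Lpl difference thus depends on the probe. Apoe was lower by 2.04 ± 0.11 and Abcg1 by 0.76 ± 0.14 on the log2 scale. Nr1h2 (0.63 ± 0.13), Abca1 (1.14 ± 0.19), Srebf1 (0.80 ± 0.09), Mylip (2.56 ± 0.11) and Scd1 were higher in B cells, Scd1 by 44.7-fold (adjusted p = 5.1e-20), at 13.18 and 13.08. The second Mylip probe gave 1.55 ± 0.08. The summed level of 4 erythroid markers was 13.30 to 13.49 in untreated B cells and 8.45 to 8.47 in untreated EPM, and all 3 tested were higher in B cells. The part of these markers in the differences was not tested. Neither array of this comparison carries a label in conflict. The fit on array means, whose B cell controls include the DMSO 12 h array that does, lost the calls for Abca1 (0.91) and Abcg1 (-2.22) and gave -1.40 for Apoe and 4.66 for Scd1. The order of the levels of Nr1h3 before KLA was EPM, BMDM, B cells, and that of Scd1 was B cells, EPM, BMDM, with no overlap between neighbours. For Abca1 the order was B cells, BMDM, EPM, also without overlap.

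KLA changed none of the 10 genes in B cells by the limma test, as labelled with the scanner files. At 1 h none passed, against 5.17% of all genes, and at 12 h none passed, against 5.29%. None had an unadjusted p under 0.05 at either time. The Abcg1 change of -0.27 at 12 h passed with dye as a block. Lpl and Pltp, both near background, passed at 12 h in the scanner's processed signals, with -1.32 and -0.62. Of the KLA response genes, Cxcl10, Il6 and Tnf rose in B cells at 12 h and none passed at 1 h. With the labels exchanged, 7 of 10 genes passed at 1 h, against 47.4% of all genes, and 7 at 12 h, against 49.1%, Abcg1 with -2.87 and -3.24 and Abca1 with -1.04 and -0.97.

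Between untreated B cells and B cells with DMSO for 12 h, 7 of 10 genes differed as labelled, against 47.4% of all genes. With the labels exchanged 0 did, against 5.17%. These conditions differ in solvent and array as well as in time, which cannot be told apart. Abcg1 was at 12.02 and 12.30 in untreated B cells, 12.16 and 12.35 with KLA for 1 h, 9.22 and 9.36 with DMSO for 12 h and 8.94 and 9.10 with KLA for 12 h. The 4 arrays thus fell into an upper and a lower pair, and the fall from untreated to DMSO 12 h was 7.3-fold (log2 -2.87 ± 0.14, adjusted p = 9.43e-12). Abca1 (-1.04 ± 0.19, adjusted p = 0.000136), Scd1 (-1.30 ± 0.09, adjusted p = 1.3e-09), Mylip (-0.41 ± 0.11, adjusted p = 0.00345) and Nr1h2 (-0.38 ± 0.13, adjusted p = 0.0239) fell with it. Apoe rose from 15.22 and 15.33 to 16.70 and 16.57 (1.36 ± 0.11, adjusted p = 5.55e-09) and Nr1h3 by 0.26 ± 0.06 (adjusted p = 0.002). The Nr1h2 call was lost without either untreated replicate (-0.40 and -0.35) or without the first DMSO replicate (-0.22), and the Mylip call without the second DMSO replicate (-0.27). The Pltp change of 0.22 passed with dye as a block.

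**Figure D3:**
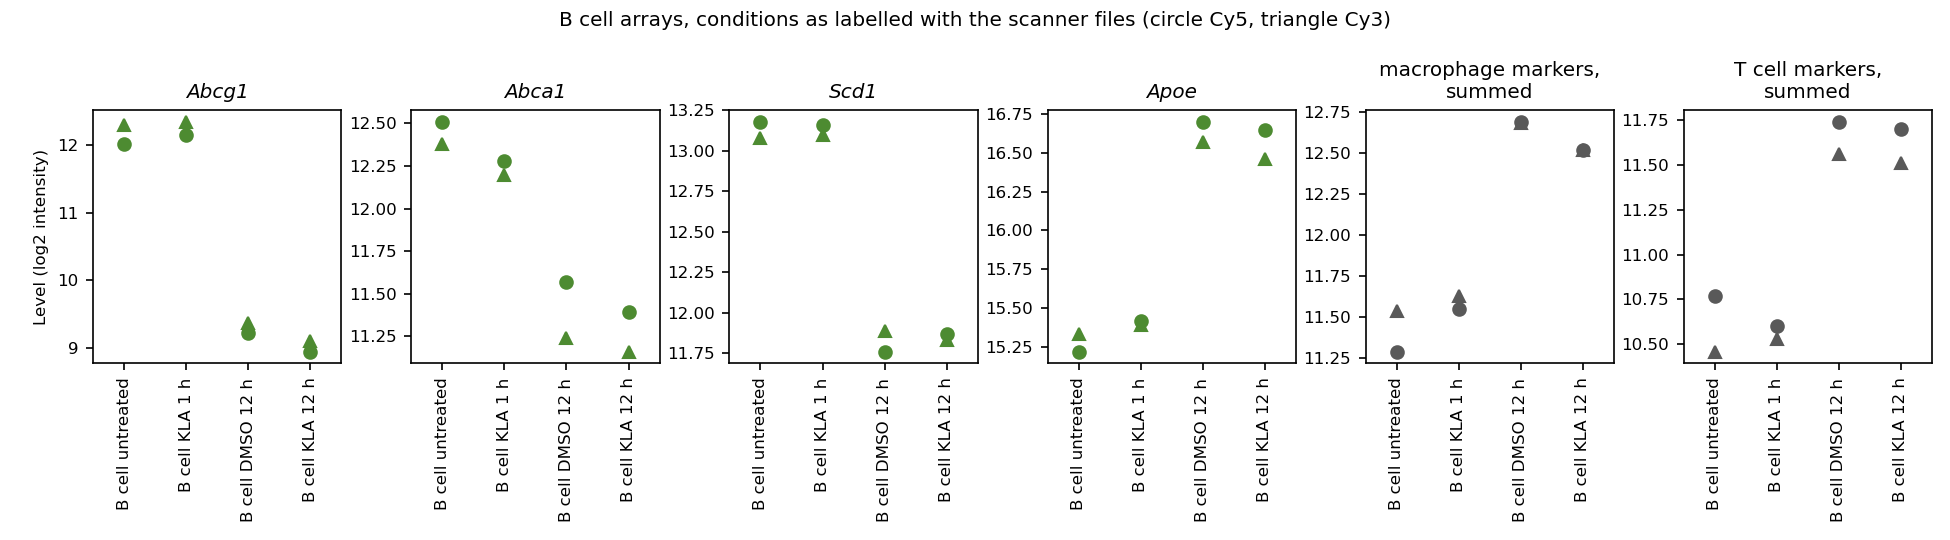
Levels of Abcg1, Abca1, Scd1 and Apoe and summed levels of 9 macrophage and 6 T cell markers (y axes, log2 intensity) on the 4 B cell arrays (x axes, conditions as labelled with the scanner files), with circles for Cy5 and triangles for Cy3. On the DMSO 12 h and KLA 12 h arrays Abcg1 lay at 8.94 to 9.36, Apoe at 16.46 to 16.70 and the macrophage sum at 12.52 to 12.69.

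Summed levels of markers of other cells differed between the same pairs of B cell arrays. The summed level of the 9 macrophage markers was 11.29 to 11.63 in untreated and KLA 1 h B cells and 12.52 to 12.69 in the 12 h conditions, beside 18.85 to 19.14 in macrophages, with Itgam, Fcgr1 and Mrc1 not above background in any of the 4. That of 6 T cell markers was 10.46 to 10.77 and then 11.51 to 11.74, and Cd8a was not above background in 3 of the 4 conditions. Gene by gene, between untreated and DMSO 12 h, 3 macrophage markers rose and 2 fell of 9 tested (median 0.03, log2), 1 of 5 T cell markers tested rose (median 0.07), and all 3 erythroid markers tested fell (median -1.09). Emr1, a macrophage surface receptor named after its values were seen, was at 7.48 and 7.56 in untreated and at 10.92 and 10.84 in DMSO 12 h B cells. It is 1 of the 9 macrophage markers, of which 2 fell, and does not stand for the list. The part of these markers in the changes of Apoe, Abcg1, Abca1 and Scd1 was not tested.

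Culture without KLA was also compared in macrophages, where in EPM the later control differed from the untreated one in DMSO as well as in time. In EPM 4 of 10 passed between untreated and DMSO 12 h, against 19.1% of all genes: Mylip (-0.60 ± 0.11, adjusted p = 0.000516), Pltp (-0.61 ± 0.10, adjusted p = 0.000208) and Abca1 (-0.58, above) fell and Scd1 rose (0.34 ± 0.09, adjusted p = 0.0124). The Scd1 call was lost without either untreated replicate (0.33 and 0.35) or the first DMSO replicate (0.19). It was also lost in the authors' table (0.35), in the scanner's processed signals (0.46) and with EPM fitted alone (0.34). The second Mylip probe gave -0.13 and did not pass. In BMDM 1 of 10 passed between DMSO 1 h and DMSO 12 h, against 23.2% of all genes: Nr1h3 rose by 0.29 ± 0.06 (adjusted p = 0.00215). That call was lost without the first DMSO 12 h replicate (0.21), in the authors' table (0.29) and in the scanner's processed signals (0.13). With dye as a block, Abca1 (-0.44), Abcg1 (-0.29), Mylip (-0.23) and Pltp (-0.26) passed in BMDM too.

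Around the 10 genes stood 105 genes of related lipid pathways, 97 of them tested. At 12 h of KLA, 24 rose and 44 fell in EPM, and 29 rose and 46 fell in BMDM. Of 17 other LXR target genes tested, 1 rose and 8 fell in EPM and 3 rose and 9 fell in BMDM, with median changes of -0.27 and -0.31 (log2). Over all genes, 19.6% rose and 34.3% fell in EPM, and 28.6% rose and 36.3% fell in BMDM. Fasn, fatty acid synthase, fell 9.11-fold in BMDM (-3.19 ± 0.07, adjusted p = 1.42e-17), from 13.03 and 12.94 to 9.81 and 9.78. In EPM the largest fall on that list was Cd5l, a secreted macrophage protein (-1.47 ± 0.09, adjusted p = 1.28e-10), and the largest rise in both cell types was Tgm2, a transglutaminase (0.49 ± 0.08 in EPM and 0.93 ± 0.08 in BMDM). Of 12 partners and cofactors, 4 rose and 6 fell in EPM and 3 rose and 5 fell in BMDM. Rxra, the LXR partner, fell in both: from 12.60 and 12.73 to 11.78 in both channels in EPM (-0.89 ± 0.06, adjusted p = 5.91e-10), and from 11.77 and 11.81 to 10.31 and 10.38 in BMDM (-1.44 ± 0.06, adjusted p = 3.36e-13). The coactivator Ncoa1 rose by 0.55 ± 0.09 and 0.81 ± 0.09.

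Genes that make or remove oxysterols divided evenly, with 3 of 7 up and 3 down in EPM and 2 up and 2 down in BMDM. Ch25h, which makes the LXR ligand 25-hydroxycholesterol, rose 37.4-fold in EPM, from 7.43 and 7.59 to 12.64 and 12.83 (5.23 ± 0.09, adjusted p = 5.69e-19), and 23.5-fold in BMDM, from 8.25 and 8.37 to 12.72 and 13.01 (4.56 ± 0.09, adjusted p = 5.66e-18). Hsd3b7, which takes oxysterols toward bile acids, fell by 1.34 ± 0.08 and 1.09 ± 0.08. Of 18 genes of cholesterol uptake, storage and lysosomal export, 5 rose and 10 fell in EPM and 8 rose and 9 fell in BMDM. Olr1, a receptor for oxidised LDL, rose 4-fold in EPM (adjusted p = 5.94e-16), and Cav1, caveolin, 3.22-fold in BMDM (1.69 ± 0.07, adjusted p = 1.52e-13). Lip1, the array's name for lysosomal acid lipase, fell 4.49-fold in EPM (-2.17 ± 0.12, adjusted p = 1.28e-11), and Stard4, a sterol carrier, 4.76-fold in BMDM (-2.25 ± 0.15, adjusted p = 1.18e-10).

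Genes of the SREBP pathway, which drives cholesterol synthesis, had medians of -0.52 and -0.65: 7 of 12 fell in EPM and 8 of 12 in BMDM, beside 34.3% and 36.3% of all genes. Sqle, squalene epoxidase, fell 3.24-fold in EPM (-1.69 ± 0.12, adjusted p = 5.15e-10) and 4.85-fold in BMDM (-2.28 ± 0.12, adjusted p = 4.38e-12). Mbtps2, a protease that activates SREBPs, rose in BMDM (0.17 ± 0.06, adjusted p = 0.0122). Among 14 genes of fatty acid synthesis and desaturation, 4 rose and 5 fell in EPM and 5 rose and 6 fell in BMDM. Scd2, a desaturase related to Scd1, fell 3.18-fold in EPM (-1.67 ± 0.06, adjusted p = 8.64e-14) and 8.3-fold in BMDM (-3.05 ± 0.06, adjusted p = 1.35e-17), while Acsl1, which activates fatty acids, rose 9.13-fold and 3.93-fold. Of 8 lipases and Lpl partners, 4 rose and 2 fell in EPM and 3 rose and 4 fell in BMDM. Lipg, endothelial lipase, was not above background with DMSO and was at least 2.03-fold higher in EPM (adjusted p = 1e-11) and 3.11-fold higher in BMDM (adjusted p = 6.79e-15) with KLA. Pnpla2, a triglyceride lipase, fell in EPM (-0.70 ± 0.07), and Angptl4, an inhibitor of Lpl, fell 4.53-fold in BMDM (-2.18 ± 0.15, adjusted p = 2.66e-10). Of 9 lipid nuclear receptors, 2 rose and 3 fell in EPM and 4 rose and 3 fell in BMDM, with Pparg falling 7.41-fold in EPM (-2.89 ± 0.05, adjusted p = 1.81e-19) and 2.61-fold in BMDM (-1.38 ± 0.05, adjusted p = 7.06e-15) and Rarg rising by 0.79 ± 0.06 and 1.16 ± 0.06. Against 53.9% and 65% of all genes, the shares that passed on these lists are descriptions.

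**Figure D4:**
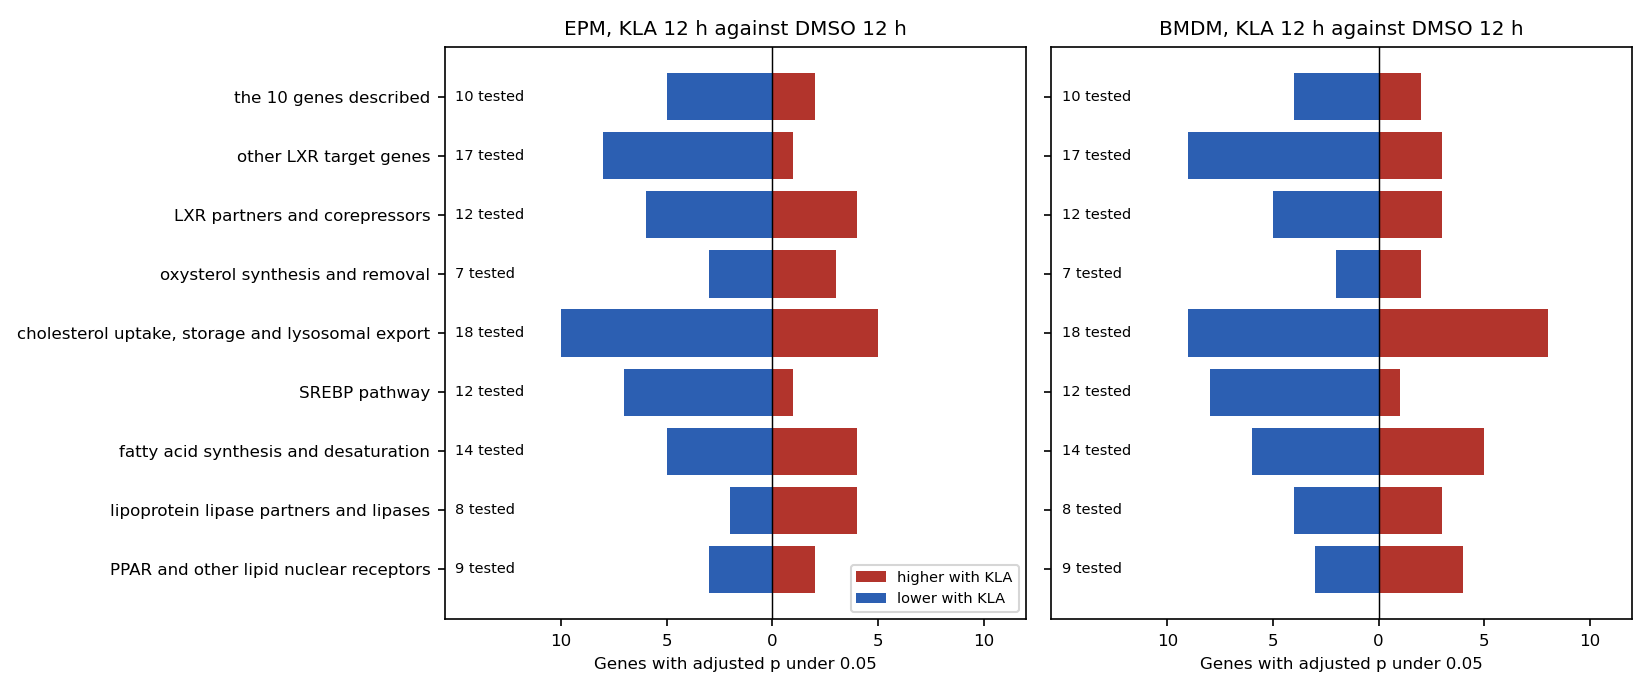
Number of genes (x axes) that passed an adjusted p of 0.05 after 12 h of KLA in EPM and BMDM, higher to the right in red and lower to the left in blue, for the 10 genes and 8 lists of related genes (y axis, with the number tested). Of 12 genes of the SREBP pathway 7 fell in EPM and 8 in BMDM, and of 17 other LXR targets 8 and 9 fell.

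Genes whose pattern over the 8 macrophage conditions was most like that of a member, each centred within its cell type, were sought among 4203 genes with a range of at least 1 (log2) in EPM or BMDM. Nr1h3 was most like 2310004I24Rik, Rtn2 and Fbn1 (Pearson r of 0.995, 0.994 and 0.994). Rtn2 stood at 6.54 with DMSO and 7.52 with KLA for 12 h in EPM, and at 6.92 and 9.55 in BMDM. For Abca1 the most alike were Ctgf, Ets2 and Marco (r of 0.955, 0.89 and 0.884), and Marco, a scavenger receptor, went from 11.22 to 13.41 in EPM and from 16.45 to 16.48 in BMDM. Htr2b, Phf15 and Tmem134 were most like Abcg1 (r of 0.952, 0.938 and 0.931), and Phf15 went from 9.45 to 9.04 in EPM and from 9.70 to 10.73 in BMDM. The correlations are descriptions over 8 means that share arrays.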

How the data were processed

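Total RNA of 24 samples was hybridised in pairs to 12 Agilent two-colour arrays on 3 slides, Cy5 holding replicate 1 and Cy3 replicate 2 of a condition. Per the file headers, the deposited scanner files hold spot intensity values from Agilent Feature Extraction 9.5.3.1 (probes placed on mm8). The authors also deposited a table of normalized intensity values for 38516 probes (the Apoe probe not among them), whose method is not given in the sources used here. It was used as an alternative.

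Mean signals were background-corrected (normexp, offset 50), normalized by loess within and Aquantile between arrays (limma 3.58.1, R 4.3.3), and outlier spots were left out. Spots were averaged per probe, and a gene took its probe of highest mean. A gene was tested if 1 condition or more had its probe well above background on both dyes. One limma model held all 24 channels with 12 residual degrees of freedom and missing spots left out, and p-values were Benjamini-Hochberg adjusted over all genes tested (threshold 0.05) in 13 comparisons. The fit was tested on simulated data first. "At least" folds use, for the dim group, the higher of the probe's level and the lowest level well above background on that channel. Changes are log2 differences, and a fold is 2 to that power. No depth applies to arrays, whose number limits the precision.

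Members and gene lists were chosen with earlier results of these data known. Named genes were the 10 members with every probe, the largest rise and fall per list at 12 h in EPM and BMDM, the 3 most alike genes for Nr1h3, Abca1 and Abcg1, and Tnf, Il1b, Il6 and Cxcl10. Replicate number and dye coincide: the difference between the dyes correlated between all 66 pairs of arrays (r of 0.27 to 0.63), so dye served as a replicate block in an alternative. Other alternatives were offset 16, processed signals, other or no normalization between arrays, filters, probe choice, the cell types compared alone, array means with pooled controls, centring, exchanged B cell labels and leaving out each channel. Probe sequences and a genome were not used here. Promoters came from RefSeq. Values of a few single genes on the lists are not reported here.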

Additional observations from a re-analysis of the deposited data

Results flagged for a closer look

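Over the 10 genes, 7 results differed between EPM and BMDM by the test of the difference of their KLA changes (EPM minus BMDM, log2, limma). These were 6 of 10 genes at 12 h, against 47.8% of all genes tested, and 1 of 10 at 1 h, against 9.56%. None of them passed with the mean of each array as 1 sample. At 12 h the differences were -1.20 for Nr1h3, 1.43 for Abca1, -1.35 for Abcg1, 0.43 for Srebf1, 0.70 for Mylip and -0.55 for Pltp. At 1 h the difference was -0.57 for Mylip, with an untreated control in EPM and a DMSO control in BMDM. The second Mylip probe gave differences of 0.10 at 12 h and -0.28 at 1 h, and neither passed. At 12 h Abcg1 fell in EPM and rose in BMDM, while Abca1 rose in EPM and its change of -0.18 in BMDM did not pass.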

How the results depend on the processing

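Of 16 changes with KLA that passed among the 10 genes, 12 passed in every fit that left out 1 channel, as did 15 of 16 basal differences, 5 of 7 differences between EPM and BMDM and 7 of 12 changes with culture. With 1 channel left out, the number of the 10 genes called ranged from 1 to 3 in EPM at 1 h, 0 to 2 in BMDM at 1 h and 0 to 1 for the difference at 1 h, from 2 to 3 for EPM culture and from 1 to 2 for BMDM culture. Offset 16, quantile normalization over all channels, no filter and centring on all genes changed no call of a KLA change within a cell type. Without quantile normalization between arrays the median change of all genes was -0.14 in BMDM at 12 h (reported -0.025), -0.016 in EPM at 12 h (-0.061) and 0.167 for their difference (-0.026), and the share of calls that were higher was 29.8% (44%), 46.4% (36.3%) and 76.7% (48.5%).

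Counts of called members moved as follows. With array means as samples they were 0 in EPM at 1 h, 1 in EPM and 3 in BMDM at 12 h, 1 for basal EPM against BMDM, and 0 for each difference between EPM and BMDM. Over all genes these fits called 165 genes at 1 h and 2006 at 12 h in EPM (5049 and 9349 with channels as samples), 99 and 3653 in BMDM (4956 and 11265), 14 and 1 in B cells (897 and 918), 0 and 107 differences (1658 and 8291) and 3403 basal differences (10029). With dye as a replicate block the counts were 5 in EPM and 2 in BMDM at 1 h, 5 for BMDM culture, 1 in B cells at 12 h and 4 for the difference at 1 h. Over all genes the block raised the counts to 2406 and 1937 in B cells, 3103 for the difference at 1 h and 5152 for EPM culture (3312 without the block). A higher count of members with the block is thus a description. No quantile normalization gave 1482 in B cells at 1 h. The filter on all channels gave 429 and 386 in B cells, 770 for the difference at 1 h and 1983 for EPM culture, and the cell type alone 392 and 533 in B cells. Of the members, processed signals called 1 in BMDM at 1 h, 2 in B cells at 12 h and 2 for the difference at 1 h (4911, 1179 and 1666 over all genes). The mean of probes gave 1 in BMDM at 1 h (5149 over all genes) and 2 for BMDM culture. Offset 16 gave 2 for BMDM culture and 2 for the difference at 1 h (3792 and 1523 over all genes). No quantile normalization gave 2 for the latter (1779 over all genes). The authors' table gave 1 in EPM at 1 h and 0 for BMDM culture (3669 and 3501 over all genes, 5049 and 4026 as reported). The cause was not tested.

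Counts from the authors' table leave out Apoe, whose probe it lacks. In B cells Apoe passed with exchanged labels at 1 h (1.36) and 12 h (1.15), and Pltp (0.30) passed at 1 h in the authors' table but not with exchanged labels. For B cells the authors' table gave 7 at 1 h, 5 at 12 h and 0 for culture, and exchanged labels gave 7, 7 and 0 (over all genes 7161, 7561 and 434 against 8218, 8526 and 897, with 897, 918 and 8218 as labelled). Of values that passed in the reported or the alternative fit, the direction reversed only there, while values that passed in neither changed sign elsewhere too. In the authors' table, Abcg1 was -2.70 at 1 h and 0.11 for culture, Nr1h3 0.37 at 1 h, and Scd1 -1.26 at 1 h, -1.30 at 12 h and 0.06 for culture. With labels exchanged, Abcg1 was -2.87 at 1 h and 0.10 for culture, Nr1h3 0.26 and -0.01, Scd1 -1.30 at 1 h, -1.29 at 12 h and 0.01 for culture, and Apoe 1.15 at 12 h. The exchange of 2 columns is the construction of this alternative.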
